A study of Mus musculus with 4 samples.

Results

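The genes described here are 9 receptors through which liver cells read foreign chemicals, lipids and hormones. They were chosen by name, and each is represented by its brightest probe set, by the mean over the 4 arrays of the study. Of the 9 genes, 8 had a probe set carrying that symbol, out of 19505 named genes in all: Nr1i2, Nr1i3, Ahr, Ppara, Pparg, Nr5a2, Nr3c1 and Thrb. Ppard was not analysed here. Each of the 8 had 1 probe set. The 8 genes were compared between liver with and without a hepatocyte knockdown of Mcu, the pore subunit of the mitochondrial calcium uniporter, before and after partial hepatectomy.

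The 4 groups, each 1 array, were knockdown liver at 30 h (KD_30h), knockdown liver at 0 h (KD_0h), wild-type liver at 30 h (WT_30h) and wild-type liver at 0 h (WT_0h). Knockdown animals were MCUloxp/loxp males on the C57BL6J background, aged 10 to 12 weeks at injection, which received AAV8-TBG-Cre through the tail vein. Wild-type animals, so named by the genotype label, were littermates given AAV8-TBG-Null; the labels do not say whether they carried floxed alleles. The TBG promoter is active in hepatocytes, so other liver cells were not targeted. A 70% hepatectomy followed 5 weeks after injection, and the remnant was taken at 30 h; how the 0 h tissue was obtained is not given in the sources used here. Each array was hybridised with a pool of 4 biological replicates according to the series text, so there is no spread between animals and no test, p-value or error for any difference below. The genotype label of the knockdown arrays names another floxed allele than the treatment protocol; the source label and protocol were followed, and knockdown here means the animals so labelled. The sample descriptions conflict with the titles: they name ethanol feeding, and that of KD_30h names 1 h, so groups follow titles and time labels. Without a 30 h group that kept its whole liver, tissue loss, surgery and sampling time cannot be told apart.

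Mcu itself read 2.63 on KD_30h and 2.83 on KD_0h, against 4.30 on WT_30h and 4.77 on WT_0h, so the knockdown arrays were lower at both times. Values are log2 expression from RMA, a method that corrects background, equalises arrays and summarises probes; a difference of 1 is 2-fold. Array medians lay between 3.75 and 3.84, and the hepatocyte marker Alb lay between 12.63 and 12.69 on the 4 arrays. The SD over probe sets was widest on WT_30h (1.96) and lay between 1.83 and 1.88 on the other arrays. Markers of neutrophils (mean log2 2.54 to 3.05 per array), T cells (2.83 to 3.02) and fat cells (2.86 to 3.18) were dim on average on each array. Single markers read higher, Plin1 of fat cells from 4.03 to 4.41 and Cd4 of T cells from 3.83 to 4.38. Genes whose 4 values averaged 3.83 or more, the midpoint of the ranked gene averages, are called bright; these were 9759 genes, among them the 8 receptors. Shares of the bright genes past 2-fold are given as the background of each comparison.

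Nuclear receptors are transcription factors switched by small ligands. Nr1i2 (PXR) and Nr1i3 (CAR) sense drugs and bile acids, pair with the retinoid X receptor Rxra and switch on cytochrome P450 genes. Ppara and Pparg are fatty acid sensors that drive fat oxidation and fat storage, and Nr5a2 (LRH-1) binds DNA as a monomer and supports bile acid and cholesterol genes. Nr3c1, the glucocorticoid receptor, waits in the cytoplasm on Hsp90 chaperones, while Thrb is the main thyroid hormone receptor of hepatocytes. Ahr is not a nuclear receptor by descent: it is a basic helix-loop-helix protein that binds dioxins and tryptophan products and pairs with Arnt.

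RefSeq promoter sequences (build GRCm38.p6) were matched by symbol for 7 of the 9 receptors; those of Ahr and Nr3c1 were not. Shown are the 250 bases before the first listed start of 4 genes. Nr1i2 and Nr1i3 are related sensors that differed in their response. Ppara and Thrb were lower at 30 h on both genotypes' arrays, as were Pparg and Nr5a2 by less, which are not shown. The windows are chr16:38294825-38295074 on the minus strand for Nr1i2, chr1:171213720-171213969 on the plus strand for Nr1i3, chr15:85735526-85735775 on the plus strand for Ppara and chr14:17660710-17660959 on the plus strand for Thrb, each printed on the gene's own strand. The annotated spans of Ppara and Thrb begin at positions 85734910 and 17659225, so their windows lie inside the annotated genes. Another listed start of Thrb is not shown. Capitals mark matches on either strand to 7 short motifs.
Nr1i2: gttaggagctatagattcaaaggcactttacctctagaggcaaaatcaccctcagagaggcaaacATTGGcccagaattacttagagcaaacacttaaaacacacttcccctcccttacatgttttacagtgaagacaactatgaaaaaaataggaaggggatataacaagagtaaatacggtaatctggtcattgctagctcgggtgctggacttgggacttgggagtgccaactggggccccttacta
Nr1i3: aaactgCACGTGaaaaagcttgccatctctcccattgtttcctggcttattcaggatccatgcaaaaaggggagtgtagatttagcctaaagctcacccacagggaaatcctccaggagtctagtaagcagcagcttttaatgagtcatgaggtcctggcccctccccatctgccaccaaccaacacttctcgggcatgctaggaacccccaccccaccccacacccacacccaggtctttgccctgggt
Ppara: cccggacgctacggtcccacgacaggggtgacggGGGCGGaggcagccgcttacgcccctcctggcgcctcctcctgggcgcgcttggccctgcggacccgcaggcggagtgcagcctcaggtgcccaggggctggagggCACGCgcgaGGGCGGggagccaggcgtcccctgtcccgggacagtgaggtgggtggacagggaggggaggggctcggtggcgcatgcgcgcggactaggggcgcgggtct
Thrb: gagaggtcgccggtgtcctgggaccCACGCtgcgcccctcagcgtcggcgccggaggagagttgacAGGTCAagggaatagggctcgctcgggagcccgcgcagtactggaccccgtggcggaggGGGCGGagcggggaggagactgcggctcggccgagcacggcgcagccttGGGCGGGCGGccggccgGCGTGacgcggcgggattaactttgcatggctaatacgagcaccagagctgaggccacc

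The motifs searched, with the share of 32851 promoter windows of the same length that hold each, were the nuclear receptor half-site AGGTCA (14%), the glucocorticoid receptor half-site AGAACA (16.1%), the Ahr response element core GCGTG (28.2%), the GC box GGGCGG (32.7%), the CCAAT box (33.8%), the TATA box TATAAA (12.4%) and the E-box CACGTG (6.02%). The Nr1i2 window had 44.0% G and C, against a median of 52.4% over all windows, and its 1 match was a CCAAT box 185 bases before the start. The Nr1i3 window had 53.2% G and C and 1 match, an E-box 244 bases before the start. Ppara (76.4% G and C) held 2 GC boxes and 1 Ahr core. Thrb (71.6%) held 1 nuclear receptor half-site, 2 Ahr cores and 3 GC boxes, of which 2 overlap. GCGTG and CACGTG can share letters, and none of these matches did. A match describes letters and says nothing of binding.

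Among the 8 receptors, Nr1i2 had the widest range over the arrays (1.44) and Nr3c1 the narrowest (0.15). In wild-type liver Nr1i2 was higher at 30 h and Ahr was higher by less, while Thrb was lower. In knockdown liver Thrb and Ppara were lower at 30 h, Ahr was higher, and Nr1i2 was within 0.22 of its 0 h level. Pparg and Nr5a2 were lower on the knockdown array at both times. At 30 h Nr1i2 differed most between the genotypes (-0.80), and Ahr (-0.38) and Ppara (-0.37) were also lower in knockdown liver. Nr1i3 and Nr3c1 spanned 0.30 or less.

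**Figure D1:**
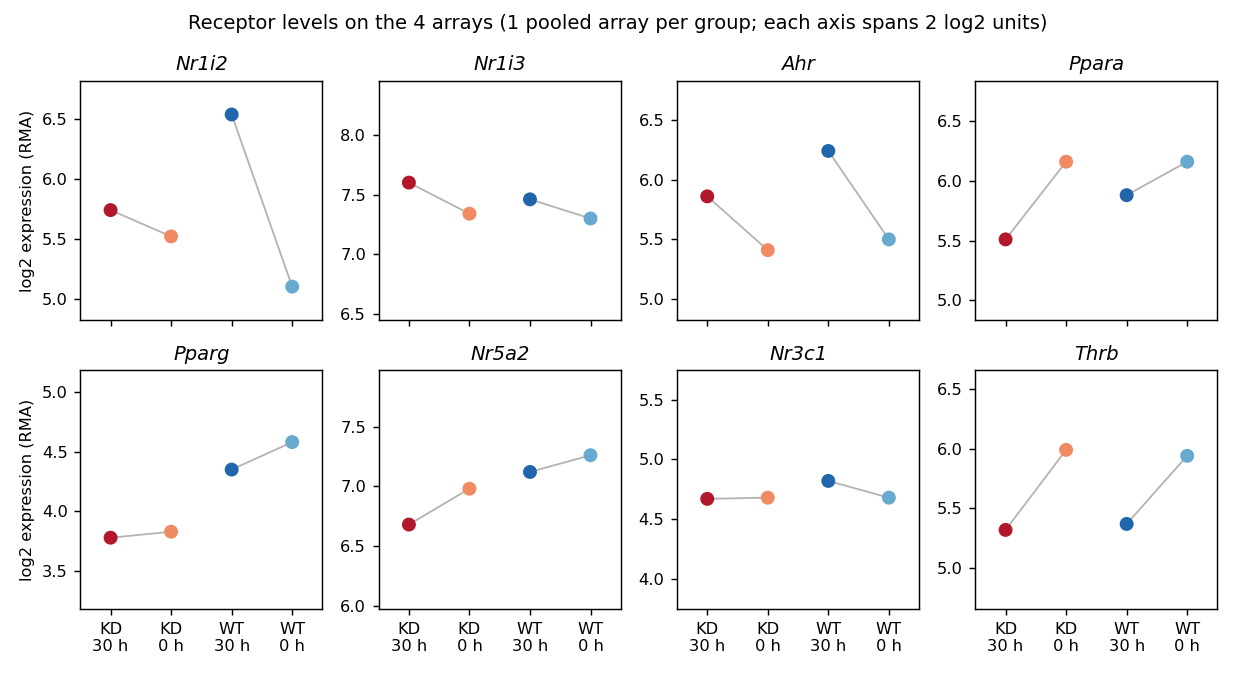
Log2 expression (vertical axis, each panel spanning 2 log2 units) of the 8 receptors on the 4 pooled arrays, KD 30 h, KD 0 h, WT 30 h and WT 0 h from left to right; each point is 1 array and grey lines join the times of 1 genotype. Nr1i2 stands highest on the WT 30 h array (6.54), Thrb is low on both 30 h arrays, and Pparg is lower on both KD arrays (3.78 and 3.83).

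Across the 5 comparisons, few receptors passed 2-fold. In knockdown liver at 30 h against 0 h, 0 of the 8 were at least 2-fold apart, where 5.38% of the bright genes were. In wild-type liver at 30 h against 0 h, 1 of the 8 was (Nr1i2), with a background of 7.59%. Knockdown against wild-type liver gave 0 of 8 at 30 h (background 3.3%) and 0 of 8 at 0 h (background 1.89%). In the difference between the knockdown and the wild-type response 1 of 8 passed, again Nr1i2, with a background of 10.7%. These counts are too small to set the receptors apart from the bright genes.

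By direction, 7 of the 8 receptors were lower in knockdown than in wild-type liver at 30 h, with a median difference of -0.38 against -0.11 over the bright genes, of which 61.2% were lower. The count was 6 of 8 after cyclic loess and after quantile normalization, with a median of -0.21 after each. The median over the bright genes was then -0.02 after each. At 0 h 3 were lower, 3 higher and 2 equal, with 42.2% of the bright genes lower, but 7 of 8 were lower after cyclic loess and after quantile normalization. The response was negative for 5 of 8 in knockdown liver (53.1% of bright genes) and for 4 of 8 in wild-type liver (40.8%), and after cyclic loess for 4 in knockdown and 5 in wild-type liver. The knockdown response was below the wild-type one for 6 of 8 receptors, with 63.2% of the bright genes below. The count was 4 of 8 after cyclic loess and after quantile normalization. The median over the bright genes was -0.18 in this comparison, and -0.03 after each of the 2 methods.

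**Figure D2:**
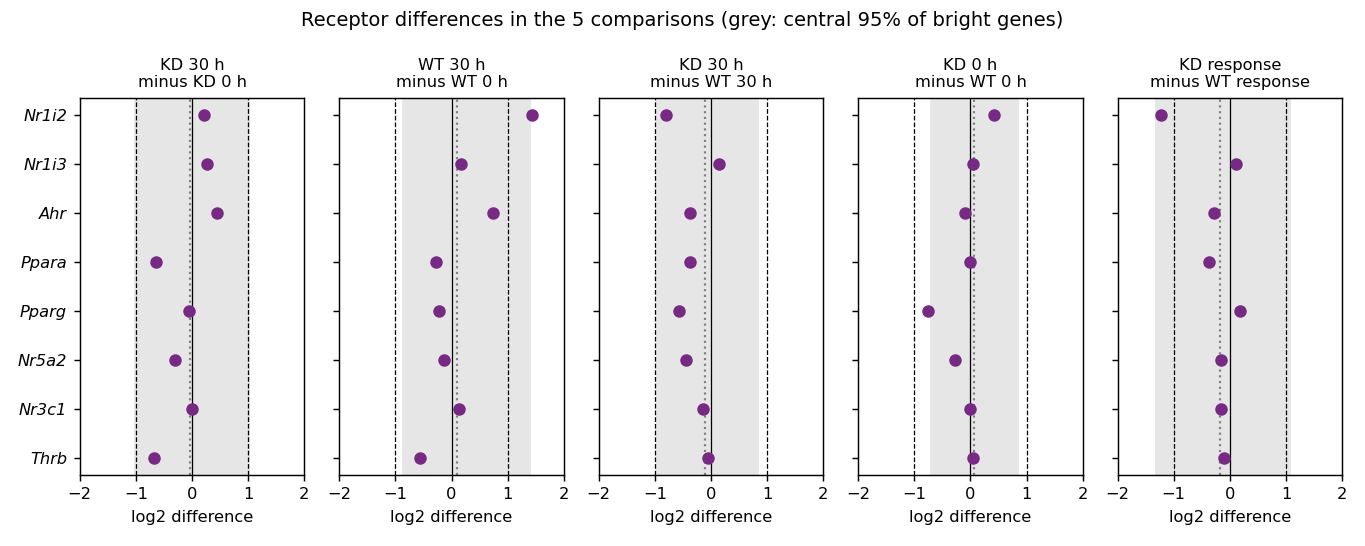
Log2 differences of the 8 receptors (points) in the 5 comparisons, 1 panel each; the grey band is the central 95% of the 9759 bright genes, the dotted line their median, and dashed lines mark 2-fold. Nr1i2 lies just above the band in the wild-type response (1.44), and Pparg just below it in KD 0 h minus WT 0 h (-0.75).

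The xenobiotic sensor Nr1i2 read 5.74 on KD_30h and 5.52 on KD_0h, against 6.54 on WT_30h and 5.10 on WT_0h. The WT_30h array stood above the other 3, and the 2 knockdown arrays lay between the wild-type ones. The response was 0.22 (1.16-fold higher) in knockdown liver and 1.44 (2.71-fold higher) in wild-type liver, a size reached by 217 of the 9759 bright genes in the same direction. Knockdown minus wild-type was -0.80 at 30 h (1.74-fold lower), with 526 bright genes as low or lower, and 0.42 at 0 h. The knockdown response was below the wild-type one by 2.33-fold (-1.22), where 340 bright genes were as low or lower. This last value was -0.99 after quantile normalization, just inside 2-fold, while the wild-type response stayed between 1.26 and 1.46 under the alternative normalizations.

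Nr1i2 is known mainly from hepatocytes and gut, and in whole tissue fewer cells of a type and less RNA per cell cannot be told apart. The 7 measured hepatocyte markers had median responses of -0.06 in knockdown (0.01 after quantile normalization) and 0.00 in wild-type liver. Their summed linear level was 27300 on KD_30h and 26800 on KD_0h, against 27200 on WT_30h and 24400 on WT_0h. Among markers of Kupffer cells, the liver's macrophages, 8 of 9 had, like Nr1i2, a lower response in knockdown than in wild-type liver. Their median was -0.75 (-0.49 after cyclic loess and -0.50 after quantile normalization). Over the bright genes 63.2% were lower, with a median of -0.18 (-0.03 after each normalization). The summed linear level of the Kupffer markers was 513 on KD_30h and 511 on KD_0h, against 624 on WT_30h and 361 on WT_0h. The lowest single value among the 9 was 3.41. Clec4f, specific to these cells, read 5.92 on KD_30h and 6.51 on KD_0h, against 6.19 on WT_30h and 6.09 on WT_0h. In the difference of responses 5 of 7 hepatocyte markers were also lower (median -0.11). So were 5 of 8 bright sinusoidal endothelial markers (median -0.49) and 4 of 5 bright stellate cell markers (median -0.15). After cyclic loess these counts were 3, 4 and 3. The part of any of these cells in the Nr1i2 values was not tested.

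By Euclidean distance between log2 values centred on each gene's mean over the 4 arrays, the bright genes most like Nr1i2 were Psmd10 and Gins4 (0.09 each) and Lrrc58 (0.10), where the median distance to 9424 genes was 1.06. Psmd10 encodes gankyrin, a proteasome assembly factor, and Gins4 a subunit of the replicative helicase. Gins4 read 6.01 on KD_30h and 5.80 on KD_0h, against 6.81 on WT_30h and 5.48 on WT_0h. With 4 arrays, closeness of this kind is a description.

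Nr1i3 (CAR) read 7.60 on KD_30h and 7.34 on KD_0h, against 7.46 on WT_30h and 7.30 on WT_0h. The 4 arrays spanned 0.30, so this close relative of Nr1i2 showed no difference of 2-fold or near it. Its response was 0.26 in knockdown liver and 0.16 in wild-type liver, and the wild-type value turned to -0.07 after cyclic loess and -0.08 after quantile normalization.

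Ahr read 5.86 on KD_30h and 5.41 on KD_0h, against 6.24 on WT_30h and 5.50 on WT_0h. Its response was 0.45 (1.37-fold higher) in knockdown liver and 0.74 (1.67-fold higher) in wild-type liver. Knockdown minus wild-type was -0.38 at 30 h and -0.09 at 0 h.

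Targets of Nr1i2 and Nr1i3 include the drug-oxidising cytochrome P450 genes, and of 17 listed genes 14 were measured and 13 were bright. Of the 13, 7 were higher and 6 lower at 30 h in knockdown liver (median 0.05, 2 at least 2-fold higher), and 9 were higher and 4 lower in wild-type liver (median 0.27, 3 at least 2-fold higher). The wild-type median became -0.03 after quantile normalization, where that over the bright genes was also -0.03. Among the bright genes 46.2% were higher in knockdown and 58.2% in wild-type liver. At least 2-fold higher were 2.64% of them in knockdown and 5.98% in wild-type liver. Cyp2b10, the classical CAR target, read 7.65 on KD_30h and 6.23 on KD_0h, against 7.76 on WT_30h and 6.24 on WT_0h, a response of 1.42 in knockdown and 1.52 in wild-type liver. Alas1, the rate-limiting enzyme of haem synthesis, had responses of 2.12 in knockdown and 2.23 in wild-type liver. The main PXR target Cyp3a11 differed by 0.18 in knockdown and 0.27 in wild-type liver.

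The uptake transporter Slco1a4 read 7.02 on KD_30h and 6.77 on KD_0h, against 7.32 on WT_30h and 6.32 on WT_0h, a response of 0.25 in knockdown and 1.00 in wild-type liver. It was the third target past 2-fold in wild-type liver. Abcb1a, a drug efflux pump, read 2.61 on KD_30h and 2.77 on KD_0h, against 4.64 on WT_30h and 2.27 on WT_0h, but its mean was below the bright limit. Cyp2c55 had responses of 0.55 in knockdown and 0.52 in wild-type liver, and the bile conjugate exporter Abcc2 had 0.05 in knockdown and 0.21 in wild-type liver. At 30 h, 10 of the 13 bright targets were lower in knockdown than in wild-type liver with a median of -0.23, beside 61.2% and -0.11 over the bright genes. After cyclic loess and after quantile normalization 7 of 13 were lower, with medians of -0.12 and -0.11. The median over the bright genes was then -0.02 after each. Whether the list stands apart from the bright genes was not tested.

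Of 10 listed Ahr targets 8 were measured and 4 were bright. Cyp1a1, the most inducible Ahr target, read 2.93 on KD_30h and 2.49 on KD_0h, against 3.41 on WT_30h and 2.06 on WT_0h, which are dim values. Cyp1a2, which liver expresses without inducers, had responses of -0.12 in knockdown and -0.25 in wild-type liver. Tiparp, a feedback inhibitor of Ahr, was dim, with responses of 0.97 in knockdown and 0.91 in wild-type liver. The quinone reductase Nqo1 read 3.77 on KD_30h and 4.23 on KD_0h, against 4.87 on WT_30h and 4.06 on WT_0h, so it was 2.14-fold lower in knockdown than in wild-type liver at 30 h (-1.10) and its knockdown response was lower by 1.27 on the log2 scale. Xanthine dehydrogenase (Xdh) had responses of 0.81 in knockdown and 1.32 in wild-type liver. In the wild-type response the dim genes Cyp1a1 (1.35), Cyp1b1 (1.12) and Aldh3a1 (-1.03) also passed 2-fold.

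Among the lipid receptors, Ppara read 5.51 on KD_30h and 6.16 on KD_0h, against 5.88 on WT_30h and 6.16 on WT_0h. The 0 h arrays were equal, and each genotype was lower at 30 h. Its response was -0.65 (1.57-fold lower) in knockdown liver, with 961 of the 9759 bright genes as low or lower, and -0.28 (1.21-fold lower) in wild-type liver. Knockdown minus wild-type was -0.37 at 30 h, and between -0.46 and -0.20 under the alternative normalizations.

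The 25 listed Ppara targets cover peroxisomal and mitochondrial fat oxidation, and 23 were measured, 22 of them bright. Of the 22, 12 were higher and 10 lower at 30 h in knockdown liver (median 0.05), and 16 were higher and 6 lower in wild-type liver (median 0.25, or -0.04 after quantile normalization). The wild-type count lower was 10 after cyclic loess and 12 after quantile normalization. The wild-type median over the bright genes was 0.00 after cyclic loess and -0.03 after quantile normalization. Among the bright genes 46.2% were higher in knockdown (median -0.04) and 58.2% in wild-type liver (median 0.10). Cyp4a14, a fatty acid omega-hydroxylase, read 8.35 on KD_30h and 7.28 on KD_0h, against 9.24 on WT_30h and 8.35 on WT_0h. It was thus lower in knockdown liver at both times, by 2.10-fold at 0 h (-1.07) and by 0.89 on the log2 scale at 30 h, and higher at 30 h in both genotypes (1.07 in knockdown and 0.89 in wild-type liver). Cpt1a, which admits fatty acids to mitochondria, differed by -0.25 in knockdown and 0.16 in wild-type liver, and Pdk4, a brake on pyruvate oxidation, by -0.40 in knockdown and -0.64 in wild-type liver.

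At 30 h, 19 of the 22 bright Ppara targets were lower in knockdown than in wild-type liver, with a median of -0.20, beside 61.2% and -0.11 over the bright genes. That count was 14 after cyclic loess and 15 after quantile normalization, with medians of -0.07 after cyclic loess and -0.08 after quantile normalization. The median over the bright genes was then -0.02 after each. The peroxisomal thiolase Acaa1b was 2.30-fold lower at 30 h in knockdown liver (-1.20). The carnitine carrier Slc25a20 read 6.47 on KD_30h and 6.79 on KD_0h, against 7.07 on WT_30h and 6.32 on WT_0h, and its knockdown response was below the wild-type one by 2.10-fold (-1.07).

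Pparg, a regulator of fat storage that quiescent hepatocytes express weakly, lay between percentiles 48.3 and 64.5 of its arrays. It read 3.78 on KD_30h and 3.83 on KD_0h, against 4.35 on WT_30h and 4.58 on WT_0h. The knockdown values lay close to the bright limit of 3.83, which the average passed through the wild-type values. Knockdown minus wild-type was -0.75 at 0 h (1.68-fold lower), with 199 of the 9759 bright genes as low or lower, and -0.57 at 30 h (1.48-fold lower). Its responses were -0.05 in knockdown and -0.23 in wild-type liver. Pparg is also known from macrophages, endothelium and fat cells. At 0 h 8 of 9 Kupffer markers were higher in knockdown liver (median 0.43), as were 6 of 8 bright sinusoidal endothelial markers (median 0.16). The 1 bright adipocyte marker, Plin1, was lower (-0.33). Of the 4 measured adipocyte markers, dim ones included, 2 were higher and 2 lower (median 0.18). Stellate cell markers were higher for 4 of 5 bright genes (median 0.21). Among all bright genes 56.7% were higher, with a median of 0.06. The part of these cells in the Pparg values was not tested.

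The 8 listed Pparg targets were measured and 5 were bright. At 0 h the 5 were lower in knockdown than in wild-type liver (median -0.12), beside 42.2% and 0.06 over the bright genes. At 30 h, where Pparg was also lower in knockdown liver, 3 of the 5 were higher and 2 lower (median 0.21). Of the bright genes 37.8% were higher there, with a median of -0.11. The fatty acid carrier Fabp4 read 6.50 on KD_30h and 5.12 on KD_0h, against 6.29 on WT_30h and 5.24 on WT_0h, so it was at least 2-fold higher at 30 h in both genotypes. The fatty acid transporter Cd36 read 4.45 on KD_30h and 4.31 on KD_0h, against 5.69 on WT_30h and 4.50 on WT_0h. Cd36 was high on the WT_30h array alone, and knockdown was 2.36-fold below wild type at 30 h (-1.24). The lipid droplet gene Cidec had responses of 0.89 in knockdown and 0.31 in wild-type liver, and Mogat1, which was dim, had 0.58 in knockdown and -0.07 in wild-type liver.

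Nr5a2 read 6.68 on KD_30h and 6.98 on KD_0h, against 7.12 on WT_30h and 7.26 on WT_0h. Knockdown minus wild-type was -0.44 at 30 h (1.36-fold lower) and -0.28 at 0 h (1.21-fold lower). Its response was -0.30 in knockdown and -0.14 in wild-type liver. Their difference, -0.16, turned to 0.12 after cyclic loess and 0.13 after quantile normalization.

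Of 9 listed Nr5a2 targets 8 were measured, each of them bright. At 30 h 7 of 8 were lower in knockdown liver (median -0.54) and 5 of 8 in wild-type liver (median -0.25), where 53.1% and 40.8% of the bright genes were lower in knockdown and wild-type liver. Cyp8b1, the sterol 12-alpha-hydroxylase of bile acid synthesis, read 4.05 on KD_30h and 7.81 on KD_0h, against 3.31 on WT_30h and 6.84 on WT_0h. Its response was -3.76 in knockdown and -3.53 in wild-type liver, beside a difference of at most 0.30 in Nr5a2 itself. Cyp7a1, the rate-limiting enzyme of that pathway, differed by -0.61 in knockdown and -0.26 in wild-type liver, and the lipoprotein receptor Scarb1 by -0.30 in knockdown and 0.52 in wild-type liver. The stress kinase Plk3 was higher at 30 h in both genotypes (1.71 in knockdown and 2.69 in wild-type liver). At 0 h all 8 targets were higher in knockdown than in wild-type liver, with a median of 0.36 where 42.2% of the bright genes were lower, and 7 of 8 after cyclic loess and after quantile normalization, where Nr5a2 itself was lower. Plk3 was 2.45-fold higher there (1.29). The knockdown response was below the wild-type one for 8 of 8 targets (median -0.32), beside 63.2% and -0.18 over the bright genes. It was below for 5 targets after cyclic loess (median -0.06) and for 6 after quantile normalization (median -0.18). The median over the bright genes was then -0.03 after each.

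The glucocorticoid receptor Nr3c1 read 4.67 on KD_30h and 4.68 on KD_0h, against 4.82 on WT_30h and 4.68 on WT_0h. The 2 arrays at 0 h were equal and the 4 values spanned 0.15, so none of the comparisons showed more than 0.15 between arrays. Its chaperones differed more. The 5 measured chaperone genes, each bright, were all lower in knockdown than in wild-type liver at 30 h, beside 61.2% of the bright genes. The chaperone median was -0.58 (-0.40 after cyclic loess and -0.39 after quantile normalization). Over the bright genes it was -0.11 (-0.02 after each normalization). Hsp90aa1, the inducible Hsp90, read 7.51 on KD_30h and 7.08 on KD_0h, against 8.08 on WT_30h and 7.25 on WT_0h. The co-chaperone Dnajc7, known as a retention protein of CAR, differed by -0.46 between genotypes at 30 h.

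Targets of Nr3c1 moved in both directions at 30 h. The 14 listed genes were measured and bright. At 30 h 8 were higher and 6 lower in knockdown liver (median 0.48, 4 at least 2-fold higher), and 11 were higher and 3 lower in wild-type liver (median 0.82, 4 at least 2-fold higher), against medians over the bright genes of -0.04 in knockdown and 0.10 in wild-type liver. Of the bright genes 53.1% were lower in knockdown and 40.8% in wild-type liver, and 2.64% and 5.98% were at least 2-fold higher. The medians of the targets were 0.49 in knockdown and 0.60 in wild-type liver after cyclic loess, and 0.39 and 0.55 after quantile normalization. Fkbp5, a feedback co-chaperone of the receptor, read 7.61 on KD_30h and 6.40 on KD_0h, against 7.68 on WT_30h and 5.91 on WT_0h. The responses of Fkbp5 were 1.21 in knockdown and 1.77 in wild-type liver. Per1, a clock gene, had responses of 0.97 in knockdown and 1.56 in wild-type liver. The tyrosine-degrading enzyme Tat had 0.58 in knockdown and 0.83 in wild-type liver, and the leucine zipper gene Tsc22d3 had -0.97 in knockdown and -0.08 in wild-type liver.

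The other Nr3c1 targets past 2-fold were Mt2, a metallothionein, with responses of 6.01 in knockdown and 3.52 in wild-type liver, Cebpd (1.01 in knockdown and 1.41 in wild-type liver) and, in knockdown liver, the IGF-binding protein gene Igfbp1 (1.53, against 0.81 in wild-type liver). Several of these genes are also acute phase, stress or clock genes. The Mt2 values were 12.03 on KD_30h and 6.02 on KD_0h, against 11.67 on WT_30h and 8.15 on WT_0h, so the genotypes differed by -2.13 at 0 h and by 0.36 at 30 h, and its knockdown response was above the wild-type one by 2.49. The knockdown response was lower than the wild-type one for 10 of the 14 targets, a share near the 63.2% of the bright genes. The median was -0.48, against -0.23 after cyclic loess and -0.26 after quantile normalization. Over the bright genes it was -0.18, and -0.03 after each normalization. The knockdown response was lower by 1.19 on the log2 scale for the glucose-6-phosphatase gene G6pc and by 1.01 for the kinase Sgk1.

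Thrb read 5.32 on KD_30h and 5.99 on KD_0h, against 5.37 on WT_30h and 5.94 on WT_0h. The 30 h array was below the 0 h array by a similar distance in the 2 genotypes. Its response was -0.67 (1.59-fold lower) in knockdown liver and -0.57 (1.48-fold lower) in wild-type liver, with 897 bright genes as low or lower in knockdown and 838 in wild-type liver, of 9759. Under the alternative normalizations these lay between -0.72 and -0.60 in knockdown liver and between -0.72 and -0.55 in wild-type liver. Knockdown minus wild-type was -0.05 at 30 h and 0.05 at 0 h, values whose sign turned after cyclic loess and after quantile normalization.

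The 7 listed Thrb targets were measured and bright, and 5 of 7 in knockdown liver (median -0.38) and 6 of 7 in wild-type liver (median -0.55) were lower at 30 h, beside 53.1% of the bright genes in knockdown and 40.8% in wild-type liver. Dio1, the deiodinase that makes active thyroid hormone in liver, read 6.21 on KD_30h and 6.88 on KD_0h, against 6.21 on WT_30h and 6.96 on WT_0h, a course close to that of Thrb. Thrsp, a lipogenic gene, read 8.28 on KD_30h and 8.39 on KD_0h, against 7.28 on WT_30h and 7.83 on WT_0h, and was 2.0-fold higher in knockdown liver at 30 h. The corepressor Hr read 5.74 on KD_30h and 5.29 on KD_0h, against 4.66 on WT_30h and 5.48 on WT_0h, so it was 2.11-fold higher in knockdown liver at 30 h. Malic enzyme (Me1) differed at 30 h from 0 h by -0.38 in knockdown and -0.26 in wild-type liver.

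Genes that make, inactivate or carry the hormones of Nr3c1 and Thrb formed another list. Of 11 listed, 9 were measured and 8 were bright, and 5 of 8 were lower in knockdown liver (median -0.57) and 6 of 8 in wild-type liver (median -0.61), beside the same shares of the bright genes. Hsd11b1, which regenerates active glucocorticoid, read 9.32 on KD_30h and 10.46 on KD_0h, against 9.45 on WT_30h and 10.46 on WT_0h. It was 2.20-fold lower in knockdown and 2.01-fold lower in wild-type liver at 30 h. Serpina6, the corticosteroid-binding globulin, had responses of -0.64 in knockdown and -0.93 in wild-type liver. Serpina7, the thyroxine-binding globulin, read 4.59 on KD_30h and 4.08 on KD_0h, against 5.08 on WT_30h and 5.61 on WT_0h, and was 2.89-fold lower in knockdown liver at 0 h. The knockdown response differed from the wild-type one by 1.04 for Serpina7, by 1.37 for Hsd11b2 and by -1.11 for Akr1d1, a steroid 5-beta-reductase.

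**Figure D3:**
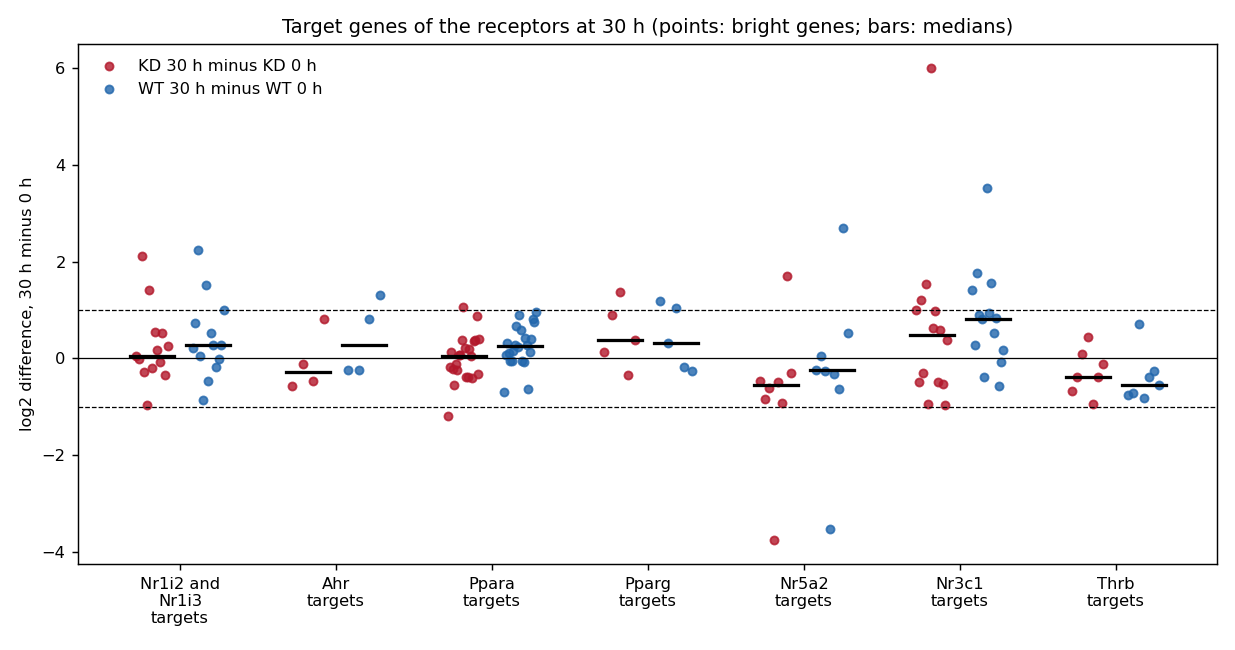
Log2 difference of 30 h minus 0 h (vertical axis) for the bright target genes of each receptor, knockdown liver in red to the left of wild-type liver in blue; each point is 1 gene, thick bars are list medians and dashed lines mark 2-fold. Nr3c1 targets have the highest medians among these lists (0.48 in knockdown and 0.82 in wild-type liver), and Cyp8b1 is the lowest point in each (-3.76 in knockdown and -3.53 in wild-type liver).

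The dimer partners and the repressor of Ahr form a list of 5 genes, each bright. Of these 0 passed 2-fold in the 5 comparisons, where between 1.89% and 10.7% of the bright genes did, so the count does not set them apart. Rxra read 7.13 on KD_30h and 7.23 on KD_0h, against 7.21 on WT_30h and 7.07 on WT_0h, and the Ahr partner Arnt spanned 5.66 to 5.86. Rxrb was lower at 30 h in knockdown liver (-0.87) and differed by 0.02 in wild-type liver. Rxrg had responses of -0.03 in knockdown and -0.35 in wild-type liver, and the Ahr repressor Ahrr of -0.58 in knockdown and -0.24 in wild-type liver.

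Of 14 coregulators listed, 12 were measured and bright. At 30 h 6 were higher and 6 lower in knockdown liver (median -0.08), and 5 were higher and 7 lower in wild-type liver (median -0.16). Among the bright genes 53.1% were lower in knockdown liver and 40.8% in wild-type liver. The coactivator Ppargc1a, known for fasting metabolism, read 6.29 on KD_30h and 4.86 on KD_0h, against 6.65 on WT_30h and 4.88 on WT_0h. It was 2.69-fold higher in knockdown and 3.41-fold higher in wild-type liver at 30 h, and the other 11 stayed inside 2-fold in the 5 comparisons. Nr0b2 (SHP), a receptor without a DNA-binding domain that represses Nr5a2, had responses of -0.92 in knockdown and -0.64 in wild-type liver, and the coactivator Ncoa1 of 0.23 in knockdown and 0.05 in wild-type liver.

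Of 41 other nuclear receptor genes listed, 36 were measured and 23 were bright. Their median responses were -0.06 in knockdown and 0.00 in wild-type liver, beside -0.03 in knockdown and 0.00 in wild-type liver for the 8 receptors. The liver factor Hnf4a had responses of 0.14 in knockdown and 0.07 in wild-type liver, and the bile acid receptor Nr1h4 (FXR) of -0.81 in knockdown and -0.08 in wild-type liver. The oxysterol receptor Nr1h3 had -0.06 in knockdown and 0.41 in wild-type liver, and Thra, the other thyroid hormone receptor, had -0.59 in knockdown and -0.11 in wild-type liver. The clock repressor Nr1d1 was at least 2-fold lower at 30 h in both genotypes (-1.39 in knockdown and -1.20 in wild-type liver), and the retinoic acid receptor Rarb was higher in knockdown liver (1.34, against -0.03 in wild-type liver). Nr3c2, the mineralocorticoid receptor, was 2.35-fold lower in knockdown than in wild-type liver at 30 h, and Rarb 2.79-fold lower at 0 h. In the wild-type response Nr1i2 lay above each of these 23 bright receptors. In the difference of responses Nr3c2 (-1.34) and Nr2f2 (-1.30) were lower than Nr1i2 (-1.22), so that value was not particular to it. Nr2f2 lay between 5.85 and 6.59. Nr3c2 was near the bright limit of 3.83, with 3.20 on KD_30h and 4.02 on KD_0h, against 4.43 on WT_30h and 3.91 on WT_0h. The dim genes Nr1h5 (-1.67) and Nr0b1 (-1.05) also passed 2-fold in the wild-type response, as did 4 dim receptors in the difference of responses, Nr1h5 (1.17), Nr2e1 (1.02), Nr4a3 (1.05) and Nr0b1 (1.45).

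**Figure D4:**
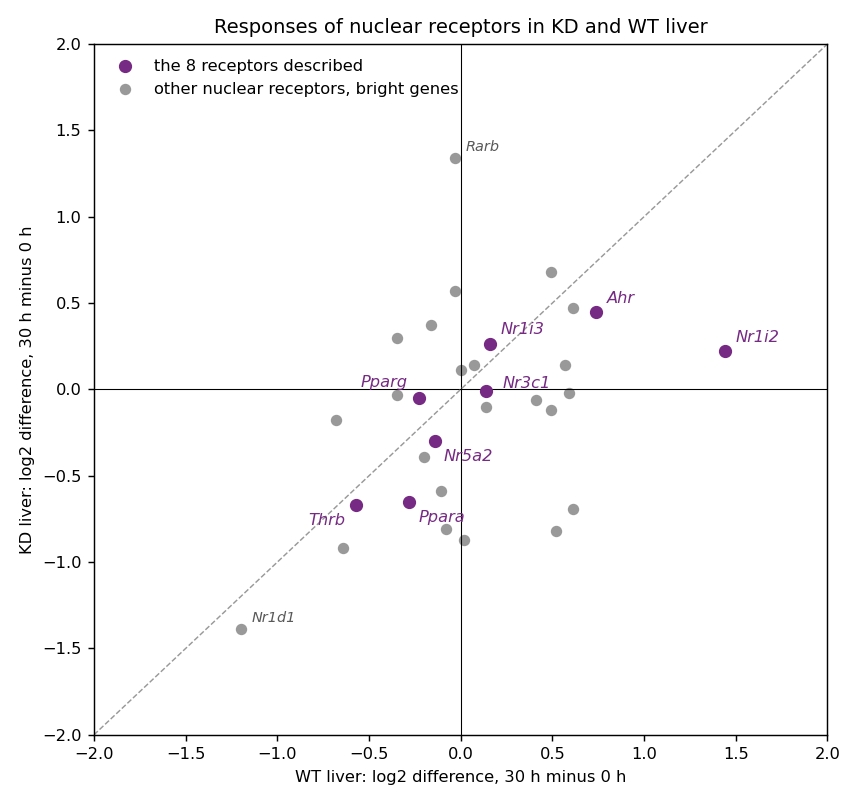
Response of each bright nuclear receptor gene and Ahr, as the log2 difference of 30 h minus 0 h in knockdown liver (vertical axis) against wild-type liver (horizontal axis); the 8 receptors described are purple, the 23 others grey, and the dashed line marks equal responses. Nr1i2 lies far to the right near the horizontal axis (0.22 in knockdown and 1.44 in wild-type liver), while Thrb lies near the dashed line.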

How the data were processed

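Total RNA of mouse liver was labelled with the GeneChip WT Plus kit and read on 4 arrays, per the labels' protocols. The authors deposited log2 values of probe sets. The submitters' processing notes name RMA and Affymetrix Expression Console, without versions, settings or a build. RMA is meant to give arrays like distributions, so a change in total RNA per cell is not seen. The deposited arrays still differed in spread (SD 1.83 to 1.96). Of 22206 probe sets, 19572 carried 1 gene symbol in the platform annotation, 0 several and 2634 none; the 19572 matched Entrez IDs of GRCm38.p6. The brightest probe set stood for the 55 of 19505 genes with several. Arrays were subtracted with pandas 2.3.3 under Python 3.11.15, and genes at least 2-fold apart were counted among 9759 bright genes. With 1 array per group no test was run, and precision is limited by how few arrays there are. An additive fit of genotype and time, which would leave 1 residual degree of freedom and count their interaction as error, was not made. The counting was tested on simulated data.

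Named were the 8 receptors, the first 4 genes of each list, list genes at least 2-fold apart in the comparison described, the 3 bright genes nearest to a receptor spanning at least 1 (log2), without predicted genes, small RNAs, and odorant, taste and antigen receptors, and Mcu. Markers were named only where they bear on a receptor. The members and lists were chosen with earlier results of these data known. Alternatives were thresholds of 1.5-fold and 3-fold, other brightness limits, the mean of probe sets, median centring, and cyclic loess and quantile normalization in limma 3.58.1. The allele in the genotype label of the knockdown arrays is not reported here.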

Additional observations from a re-analysis of the deposited data

Results flagged for a closer look

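With 1 array per group, samples within a group could not be compared, and none of the values below was tested. For 3 receptors the 2 effects under the same contrast had opposite signs. Nr1i2 was lower in knockdown than in wild-type liver at 30 h (-0.80) and higher at 0 h (0.42), a difference of -1.22. Thrb had -0.05 at 30 h and 0.05 at 0 h, a difference of -0.10, and Nr3c1 had a response of -0.01 in knockdown and 0.14 in wild-type liver, a difference of -0.15. The last 2 are smaller than the robust SD of 0.55 over the bright genes in the same comparison.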

How the results depend on the processing

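No paired analysis was possible because each group is 1 array. With a threshold of 1.5-fold, 2 receptors passed in the knockdown response, 2 in the wild-type response, 1 in knockdown against wild type at 30 h and 1 at 0 h; with 3-fold, 0 passed in the wild-type response and 0 in the difference of responses. The background shares at 1.5-fold were 21.1% and 25.6% for the knockdown and wild-type responses, 18.8% and 12.2% for knockdown against wild type at 30 h and 0 h, and 32.2% for the difference of responses. At 3-fold they were, in the same order, 1.22%, 1.76%, 0.246%, 0.143% and 1.60%, and among genes at or above percentile 75 they were 5.63%, 7.29%, 1.58%, 0.778% and 6.74%. After quantile normalization 0 receptors passed 2-fold in the difference of responses, where Nr1i2 read -0.99. Over 160 recomputed receptor differences, each moved by less than the robust SD of the bright genes in its comparison (0.34 to 0.55). That is a loose limit, since many of the receptor differences were themselves smaller. Of the 160, 13 changed sign, none larger than 0.16 as reported. The cause was not tested. Each receptor had 1 probe set, so the mean of probe sets returned the reported values by construction. Only median centring, cyclic loess and quantile normalization could move a receptor difference. Pools of animals hide the spread between them, dim values understate differences, and no detection call was used.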
